A study of Homo sapiens with 8 samples.

Results

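Transcripts of 9 genes of transforming growth factor-β (TGF-β) signalling were described in breast cancer stem cells (CSCs) with CDH2 or Cx43 knockdown: the ligands TGFB1 and TGFB2, the latency protein gene LTBP1, the receptors TGFBR1 and TGFBR2, and the SMADs SMAD2, SMAD3, SMAD4 and SMAD7. The genes were taken by name, and all 9 of the 9 were found among the 12939 genes with values. The cells were MDA-MB-231, a human triple-negative breast cancer line, and every group carried a GFP reporter driven by the Oct4a regulatory region and an RFP vector with 1 shRNA. The control had a scramble shRNA (3 libraries), and the knockdowns had an shRNA to CDH2, which encodes N-cadherin (3 libraries), or to Cx43, the gap junction protein of the gene GJA1 (2 libraries). The libraries represent the part of the cells with the highest GFP, sorted together with RFP and kept in culture overnight before RNA was taken, without the bone marrow cells with which the study co-cultured them in other experiments. According to the methods, the CDH2 knockdown was 1 clone, picked among several for its efficiency. The transcripts of CDH2 and GJA1 were not analysed here, which leaves both knockdowns without a check on the targeted gene.

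TGF-β is secreted in a latent form, in which the propeptide still encloses the mature dimer and a latent TGF-β binding protein ties the complex to the matrix. Released ligand binds TGFBR2, which phosphorylates TGFBR1, which in turn phosphorylates SMAD2 and SMAD3, and these enter the nucleus with SMAD4 to act on target genes. SMAD7 is itself a target gene and feeds back on the receptors. In breast cancer the pathway is known for growth arrest of early tumours, for epithelial mesenchymal transition and for spread to bone.

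Values are log2(CPM + 1), where CPM is the read count scaled to a common library total, with the effect of the sequencing run already removed by the authors, and a log2 fold change is a difference on that scale, which understates the change of low genes. A gene was called when its adjusted p (limma with the replicate number as a block, two-sided, Benjamini-Hochberg over 12939 genes) was under 0.05. Nothing in the labels says that the replicates were separate cultures, so the p-values measure the spread between these libraries, which may be technical. The libraries summed to between 684411 and 727083 CPM, the files hold no counts, and the depth is unknown. Each of 9 marker genes of MDA-MB-231 had values (VIM lay between 9.62 and 9.81 in the 8 libraries). Of 7 luminal breast markers 2 had values, ERBB2 and EPCAM, and ESR1, PGR, GATA3, FOXA1 and CDH1 were not among the genes. EPCAM, from 2.21 to 2.75, was lower with CDH2 shRNA by -0.37 (limma adjusted p 0.0349), as was the MDA-MB-231 marker LGALS1 by -0.65 (limma adjusted p 0.0335), and the part of either in the results was not tested. Of 7 markers of blood and endothelial cells only PECAM1 had values, between 1.67 and 2.50.

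The promoters of 6 genes are shown in part: both ligands, the inhibitory SMADs SMAD7 and SMAD6, and the target genes ANGPTL4 and PMEPA1. Of these, TGFB2 and SMAD7 were not called in either knockdown in the main fit. They are RefSeq promoters of GRCh38.p14, written 5′ to 3′ on the strand of the gene, each a stretch of 60 bases before the start of transcription. Capitals mark a SMAD-type motif, found on either strand. The motifs searched were the 8-base SMAD palindrome GTCTAGAC, the related CAGAC, the GC-rich GGCGC and the AP-1 site TGANTCA, all on both strands. In the stretch of SMAD6 only the palindrome is in capitals, and its GGCGC, on the other strand, is left in lower case.

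TGFB1, chr19:41353923-41353982, minus strand: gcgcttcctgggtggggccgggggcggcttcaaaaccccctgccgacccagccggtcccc
TGFB2, chr1:218345256-218345315, plus strand: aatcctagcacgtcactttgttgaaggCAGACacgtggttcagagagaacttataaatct
SMAD7, chr18:48951061-48951120, minus strand: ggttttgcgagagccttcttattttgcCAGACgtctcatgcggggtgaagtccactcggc
SMAD6, chr15:66702176-66702235, plus strand: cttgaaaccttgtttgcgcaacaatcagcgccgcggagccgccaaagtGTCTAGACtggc
ANGPTL4, chr19:8363989-8364048, plus strand: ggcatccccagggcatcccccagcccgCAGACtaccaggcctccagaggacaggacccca
PMEPA1, chr20:57710039-57710098, minus strand: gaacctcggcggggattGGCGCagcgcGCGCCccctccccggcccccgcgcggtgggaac

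The stretch of TGFB1 is the one next to its start and holds none of the motifs, whereas each other stretch was placed around a motif. Outside that stretch the window of TGFB1 holds GGCGC, at positions -232 and 17 from the start. The stretch of TGFB2 also lies over an exon of TGFB2-AS1, a gene on the other strand. In windows from 250 bases before to 50 after each start, the palindrome was present in 0.202% of 35116 promoters, CAGAC in 45.3%, GGCGC in 48.6% and TGANTCA in 7.71%. Of the 9 genes, TGFB2, LTBP1, TGFBR1, SMAD3 and SMAD7 held CAGAC, TGFBR2 held TGANTCA, and none held the palindrome, which was found in SMAD6. All of the 9 except TGFBR2 and SMAD7 held GGCGC. The windows of INHBB, EP300, CREBBP, LMCD1 and ID2, called genes whose promoters are not shown, held GGCGC and none of the other motifs. The match is a description of these windows and not of binding.

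All 9 transcripts were present in every library, at levels spread over a wide range. Per kilobase of exon of the MANE Select transcript, the scramble libraries held 15.2 ± 1.64 CPM of SMAD3 (SD, n = 3) and 14.7 ± 3.12 of TGFB2. TGFB1 was at 10.5 ± 0.181 CPM per kilobase, TGFBR2 at 10.4 ± 1.70 and TGFBR1 at 8.87 ± 1.29, so that TGFB1 and both receptors lay near each other. SMAD4 followed with 3.61 ± 0.368 and SMAD7 with 3.40 ± 0.469 CPM per kilobase. SMAD2, at 1.25 ± 0.141, and LTBP1, at 1.00 ± 0.265 CPM per kilobase, were lowest. The order of SMAD3 and TGFB2, and that of TGFB1 and TGFBR2, changed between the scramble libraries. TGFBR2 was 1.17, 1.15 and 1.19 times TGFBR1 in the scramble libraries. SMAD4 also lay above SMAD7, and SMAD2 above LTBP1, in each scramble library, though these means differed by less than the larger SD of each pair. The order depends on the annotated length. Over all annotated exons TGFB2 was first with 14.3 CPM per kilobase and SMAD3 second with 9.80, and TGFBR1, at 7.21, came before TGFBR2, at 6.88. The level of SMAD2 rests on a MANE Select transcript of 34626 bases, far longer than the 6464 bases of SMAD3.

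**Figure D1:**
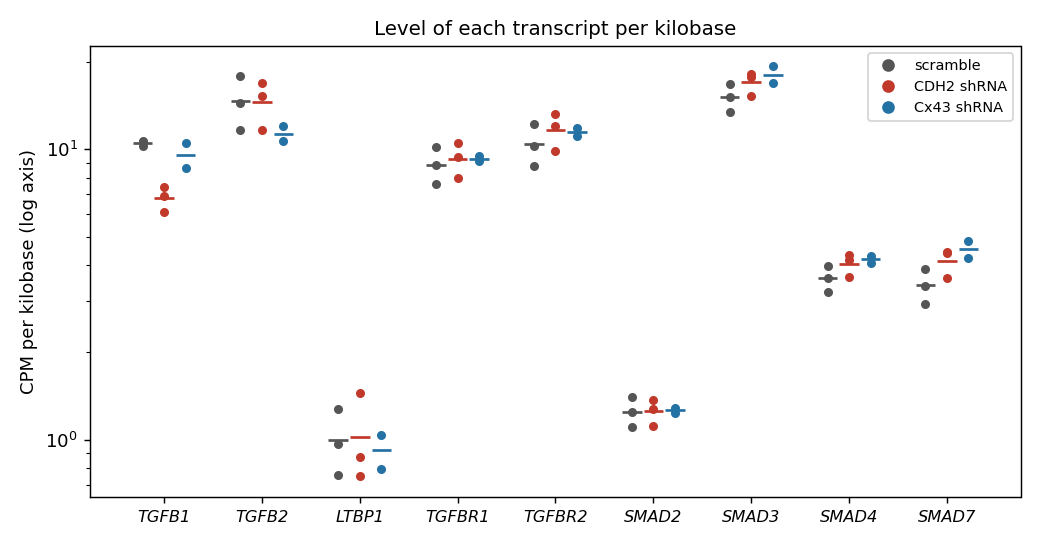
Level of each of the 9 transcripts in CPM per kilobase of MANE Select exon (log axis) in the 8 libraries; points are libraries, horizontal lines are group means. TGFB1 in the CDH2 shRNA libraries (red) lies below its other libraries, while the groups of the receptors and of SMAD2 lie over each other.

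TGFB1, the ligand gene best known in breast cancer, was the 1 transcript of the 9 called after CDH2 knockdown, and it fell. Its value was 4.93, 4.94 and 4.89 in the scramble libraries, 4.43, 4.16 and 4.34 in the CDH2 shRNA libraries, and 4.65 and 4.91 in the Cx43 shRNA libraries. Every CDH2 shRNA library lay below every other library, and the scramble libraries lay within 0.05 of each other. The CDH2 shRNA and scramble libraries did not overlap in 51.9% of all genes. Turned back, the authors' scale gave a mean of 29.3 CPM in scramble and 18.9 CPM with CDH2 shRNA. The log2 fold change was -0.61 (SE 0.12, 95% interval -0.89 to -0.32), a 1.53-fold lower value, with a limma adjusted p of 0.0327. This is smaller than the fold change that the methods asked for in this comparison. The difference from the scramble library of the same number was -0.50, -0.77 and -0.55. With Cx43 shRNA the difference was -0.14 (95% interval -0.48 to 0.19, limma adjusted p 0.577), and the CDH2 shRNA libraries were lower than the Cx43 shRNA libraries by -0.47 (limma adjusted p 0.170, and 0.0201 without the replicate block), which did not pass the threshold with the block. The fall of TGFB1 with CDH2 shRNA therefore was not shown to differ from its value with Cx43 shRNA.

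The call of TGFB1 rested on few libraries. It was lost without CDH2 shRNA replicate 1 (-0.71, adjusted p 0.101), without CDH2 shRNA replicate 2 (-0.49, adjusted p 0.0884), without scramble replicate 1 (-0.60, adjusted p 0.189), and without either Cx43 shRNA library (-0.61, adjusted p 0.0575), which only lend their spread. Without either Cx43 shRNA library no gene of the 12939 was called in this comparison. Exons of HNRNPUL1 cover 6.59% of the exon bases of TGFB1 (chr19:41301587-41353922 of hg38, minus strand), and the sources used here do not say whether reads were counted by strand. The 3 genes whose values were most like those of TGFB1 over the 8 libraries were CRIPT, IKBKGP1 and SHC2 (Pearson r 0.997 each, a description over libraries that share a run correction). CRIPT differed by -0.50 and SHC2, an adaptor of receptor tyrosine kinases, by -0.68 with CDH2 shRNA. IKBKGP1, a pseudogene of IKBKG whose reads may be shared with its parent, differed by -0.55.

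TGFB2, the second ligand, did not follow TGFB1. The scramble libraries held 6.43, 6.12 and 6.73, the CDH2 shRNA libraries 6.50, 6.64 and 6.12, and the Cx43 shRNA libraries 6.0 and 6.16. The scramble and CDH2 shRNA libraries covered the same range, from 6.12 up, and of the Cx43 shRNA libraries replicate 1 lay below it and replicate 2 near its lower end. The log2 fold change was -0.00 with CDH2 shRNA (95% interval -0.52 to 0.51, limma adjusted p 0.988) and -0.35 with Cx43 shRNA (95% interval -0.96 to 0.26, limma adjusted p 0.462). The interval with Cx43 shRNA still holds a fall as large as that of TGFB1 with CDH2 shRNA, and the one with CDH2 shRNA does not. Between the knockdowns TGFB2 differed by 0.34 (95% interval -0.27 to 0.95, limma adjusted p 0.473). Per kilobase, TGFB2 was 1.36, 1.09 and 1.73 times TGFB1 in the scramble libraries, 2.06, 2.77 and 1.68 times with CDH2 shRNA, and 1.24 and 1.15 times with Cx43 shRNA. The ratio of the ligands thus overlapped between scramble and CDH2 shRNA, through scramble replicate 3 and CDH2 shRNA replicate 3. Exons of TGFB2-OT1 and TGFB2-AS1 cover 22.7% and 11.6% of the exon bases of TGFB2, so part of its reads may belong to them.

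LTBP1, whose product binds latent TGF-β and ties it to the matrix, had the lowest values of the 9. They were 2.87, 2.56 and 3.22 in scramble, 2.74, 3.38 and 2.55 with CDH2 shRNA, and 2.96 and 2.62 with Cx43 shRNA. The groups overlapped over nearly their whole range. The log2 fold changes of 0.01 (95% interval -0.69 to 0.70) and -0.09 (95% interval -0.90 to 0.72) had the widest intervals of the 9 transcripts in their comparisons, so that only a large change could have been told apart.

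**Figure D2:**
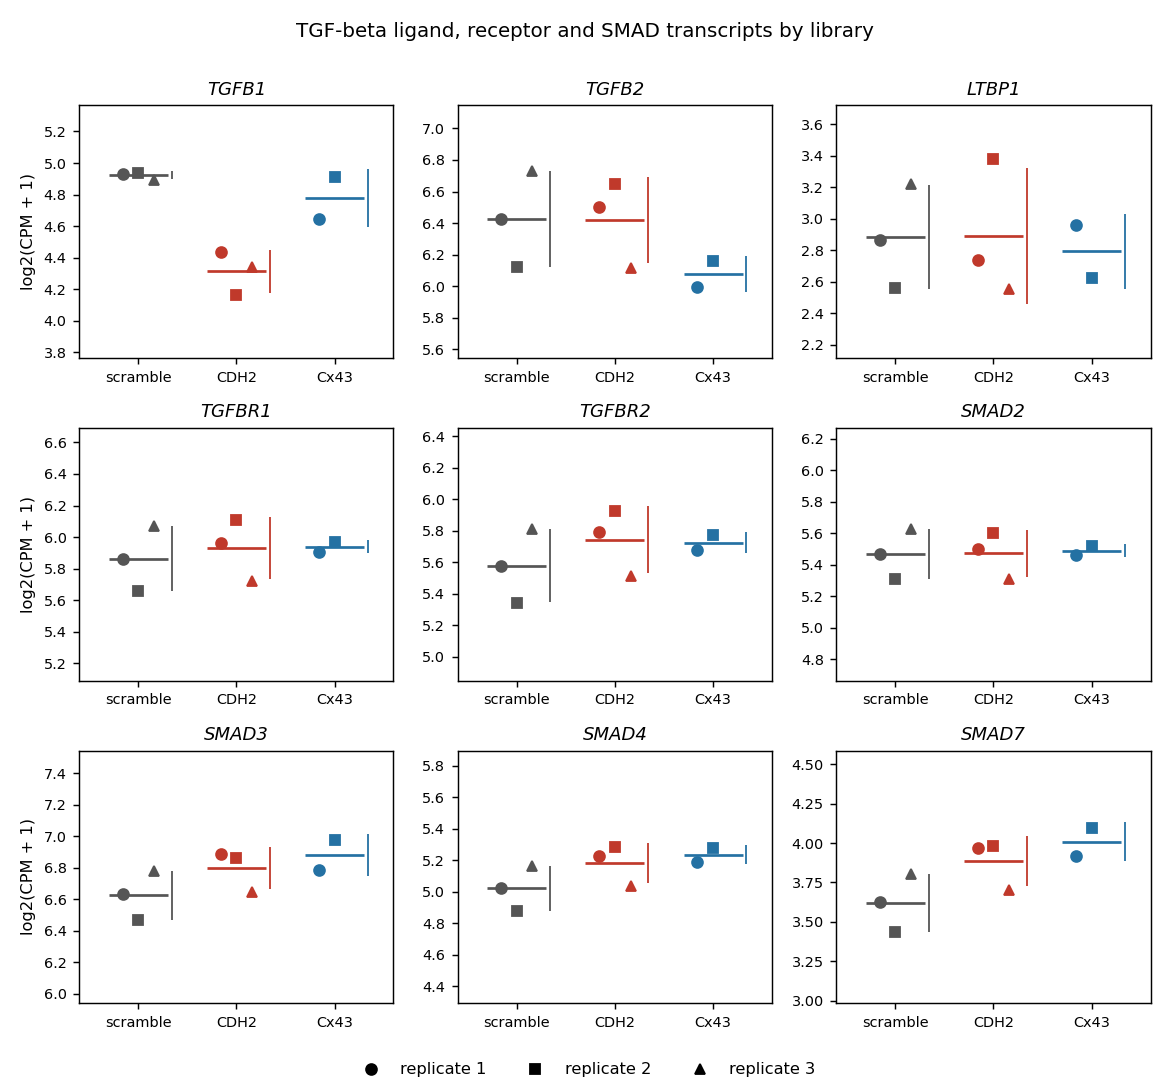
log2(CPM + 1) of the 9 transcripts in the 8 libraries, with scramble in grey, CDH2 shRNA in red and Cx43 shRNA in blue; the shape of a point gives its replicate number, horizontal lines are group means and vertical lines are ± 1 SD (n = 3, 3 and 2), and each panel spans 1.6 units. The 3 CDH2 shRNA points of TGFB1 lie below the others, and CDH2 shRNA replicate 3 is the lowest of its group in 8 of the 9 panels.

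The receptors were not called in either knockdown. TGFBR1, the type I receptor kinase, was at 5.86, 5.66 and 6.07 in scramble, 5.96, 6.11 and 5.72 with CDH2 shRNA, and 5.91 and 5.97 with Cx43 shRNA. TGFBR2, the type II receptor that binds ligand first, was at 5.58, 5.34 and 5.81 in scramble, 5.79, 5.93 and 5.51 with CDH2 shRNA, and 5.68 and 5.77 with Cx43 shRNA. For both receptors the knockdown libraries lay inside or overlapped the scramble range. TGFBR1 differed by 0.07 with CDH2 shRNA (95% interval -0.31 to 0.45, limma adjusted p 0.771) and by 0.07 with Cx43 shRNA (95% interval -0.37 to 0.52, limma adjusted p 0.840). TGFBR2 differed by 0.17 (95% interval -0.24 to 0.58, limma adjusted p 0.493) and by 0.15 (95% interval -0.34 to 0.63, limma adjusted p 0.698). TGFBR2 was higher than the same-numbered scramble library by 0.21 and 0.58 in CDH2 shRNA replicates 1 and 2 and lower, at -0.30, in replicate 3.

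The receptor-activated SMADs behaved alike in that neither was called. SMAD2 was at 5.47, 5.31 and 5.63 in scramble, 5.50, 5.60 and 5.31 with CDH2 shRNA, and 5.46 and 5.52 with Cx43 shRNA. SMAD3, which binds DNA directly, was at 6.63, 6.47 and 6.78 in scramble, 6.89, 6.86 and 6.65 with CDH2 shRNA, and 6.79 and 6.98 with Cx43 shRNA. The SMAD2 groups overlapped, and for SMAD3 both Cx43 shRNA libraries lay above the highest scramble library. The log2 fold changes of SMAD2 were 0.01 with CDH2 shRNA (95% interval -0.30 to 0.31) and 0.02 with Cx43 shRNA. Those of SMAD3 were 0.17 with CDH2 shRNA (95% interval -0.14 to 0.49, limma adjusted p 0.358) and 0.26 with Cx43 shRNA (95% interval -0.11 to 0.63, limma adjusted p 0.377).

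SMAD4, the partner that both share, and SMAD7, the inhibitory SMAD, had higher means in both knockdowns without passing the test. SMAD4 was at 5.02, 4.88 and 5.17 in scramble, 5.23, 5.28 and 5.04 with CDH2 shRNA, and 5.19 and 5.28 with Cx43 shRNA. SMAD7 was at 3.63, 3.44 and 3.80 in scramble, 3.97, 3.98 and 3.70 with CDH2 shRNA, and 3.92 and 4.10 with Cx43 shRNA. For both genes the Cx43 shRNA libraries lay above all scramble libraries, and the CDH2 shRNA libraries overlapped them through replicate 3. SMAD4 differed by 0.16 with CDH2 shRNA (95% interval -0.13 to 0.45, limma adjusted p 0.356) and by 0.21 with Cx43 shRNA (95% interval -0.13 to 0.55, limma adjusted p 0.417). SMAD7 differed by 0.26 with CDH2 shRNA (95% interval -0.08 to 0.61, limma adjusted p 0.223) and by 0.39 with Cx43 shRNA (95% interval -0.02 to 0.80, limma adjusted p 0.251), the latter the highest positive value among the 9 transcripts.

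The calls of SMAD7, SMAD3, TGFBR2 and TGFB2 depended on replicate 3, which has no Cx43 shRNA library. Without CDH2 shRNA replicate 3 or without scramble replicate 3, which gave the same fit, SMAD7 was called with CDH2 shRNA at 0.45 (adjusted p 0.0131), TGFBR2 at 0.40 (adjusted p 0.0236) and SMAD3 at 0.33 (adjusted p 0.0493). SMAD7 was then also called with Cx43 shRNA, at 0.48 (adjusted p 0.0208), as it was at 0.48 (adjusted p 0.0061) when only the Cx43 shRNA and scramble libraries were fitted. Without replicate 3 the difference between the knockdowns was called as well for TGFB1, at -0.48 (adjusted p 0.0310), and for TGFB2, at 0.50 (adjusted p 0.0276). Calls of all genes moved as well when 1 library was left out. With CDH2 shRNA they ranged from 0 to 5309, beside 1846 in the main fit. With Cx43 shRNA they ranged from 0 to 2133, beside 156, and between the knockdowns from 0 to 2131, beside 0. The calls gained without replicate 3 were therefore not shown to be particular to these transcripts. The run correction leaves the scramble and CDH2 shRNA libraries of replicate 3 with equal and opposite deviations from their group means in every gene. CDH2 shRNA replicate 3 was the lowest of its group in 8 of the 9 transcripts and in 39.5% of all genes. Scramble replicate 3 was the highest and replicate 2 the lowest of the scramble group in 8 of the 9, an order found in 48.0% of all genes.

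**Figure D3:**
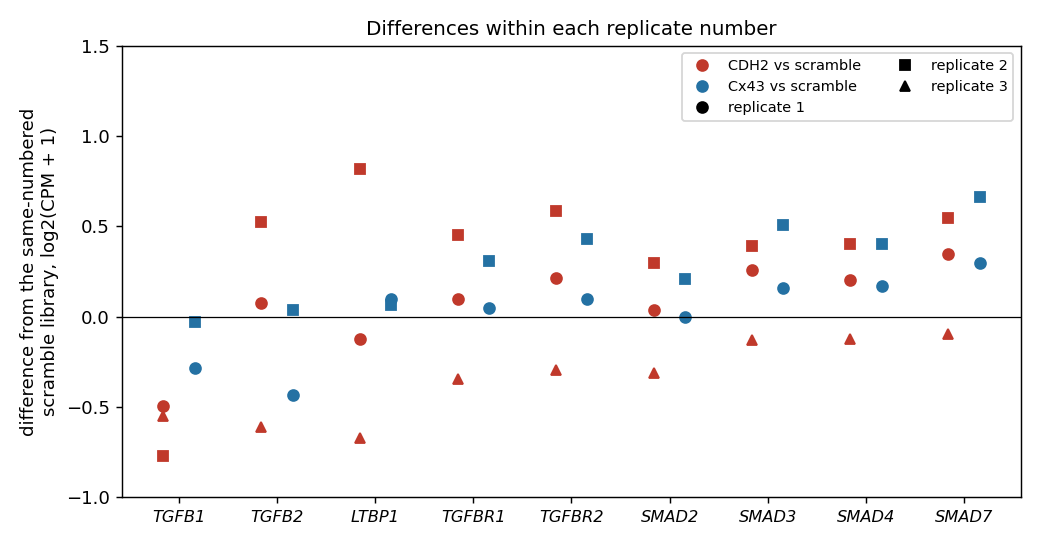
Difference of each knockdown library from the scramble library of the same replicate number, in log2(CPM + 1), for the 9 transcripts (red, CDH2 shRNA; blue, Cx43 shRNA; shapes give replicates 1 to 3). TGFB1 lies below 0 in all 5 knockdown libraries, and in replicate 3 each of the 9 transcripts lies below 0, down to -0.67 for LTBP1.

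Of the 9 transcripts, 1 was called lower and none higher with CDH2 shRNA, where 14.3% of all genes were called, 6.98% lower and 7.29% higher. None of the 9 reached both an adjusted p under 0.05 and the fold change of the methods, as 2.06% of all genes did. The median log2 fold change of the 9 was 0.07, beside 0.01 for all genes, and the libraries did not overlap in 1 of the 9, beside 51.9% of all genes. With Cx43 shRNA limma called none of the 9, and none had an unadjusted p under 0.05. Of all genes 1.21% were called in that comparison, 0.417% higher and 0.788% lower, and 1.18% also passed the 1.5-fold of the methods. The median of the 9 was 0.07, beside 0.04 for all genes, and the libraries did not overlap in 3 of the 9 (SMAD3, SMAD4 and SMAD7), beside 52.8% of all genes. Between the knockdowns limma called 0 genes (0.0%), although 2591 genes, TGFB1 the only one of the 9, had an unadjusted p under 0.05. The comparisons share the scramble libraries, so the like signs of the knockdowns are not independent.

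**Figure D4:**
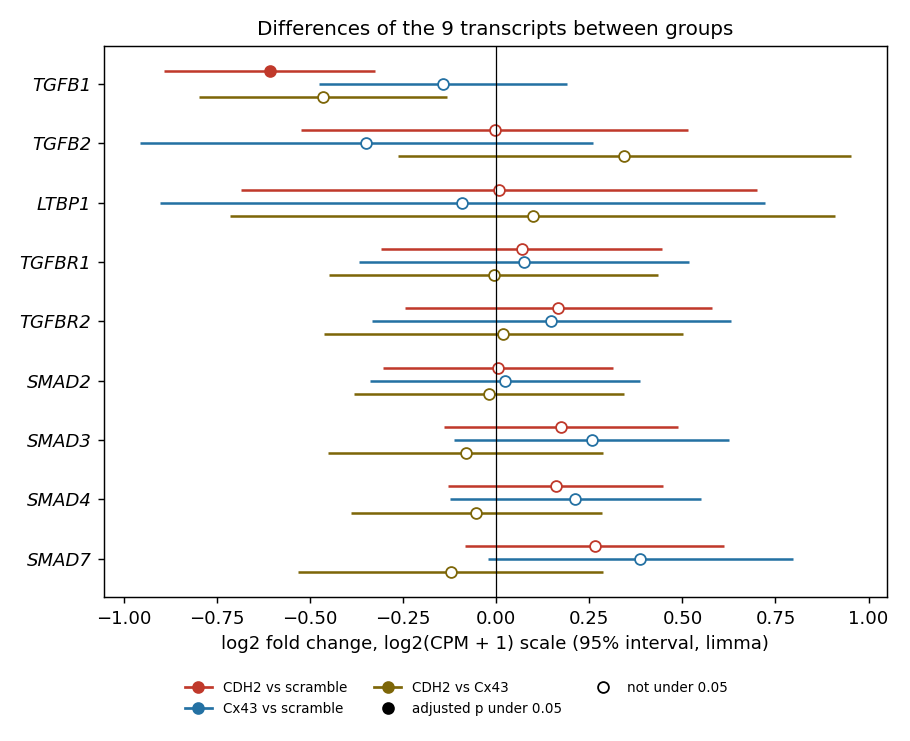
log2 fold change of the 9 transcripts with its 95% interval from limma for CDH2 shRNA versus scramble (red), Cx43 shRNA versus scramble (blue) and CDH2 versus Cx43 shRNA (brown); filled points have an adjusted p under 0.05. TGFB1 with CDH2 shRNA, at -0.61, is the only filled point, and LTBP1 has the widest intervals.

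The receptors and SMADs moved from library to library in much the same way, while TGFB1 did not. Over the 8 libraries Pearson r between any pair of these lay from 0.655 to 0.987, with the highest 0.987 for SMAD3 with SMAD7, 0.982 for TGFBR1 with SMAD2 and 0.981 for SMAD4 with SMAD7. For TGFB1 with the other members r lay between -0.398 and -0.078. These are descriptions over libraries that share run correction and replicate numbers, and all genes share them too.

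The rest of the pathway, from lists of genes chosen by role, was called in few places. Of 77 further genes for ligands, latency, receptors, SMADs, adaptors, inhibitors and the SMAD-independent branch, 56 had values, of which 2 were called higher and 2 lower with CDH2 shRNA and none with Cx43 shRNA, beside 14.3% and 1.21% of all genes. Without the replicate block 25 and 14 of the 56 were called, beside 43.3% and 24.3% of all genes. Their median log2 fold change was 0.12 with CDH2 shRNA and -0.04 with Cx43 shRNA. INHBB, which encodes a subunit of activin B and inhibin B, was the called ligand gene among 7 with values. It was at 5.77, 5.65 and 5.89 in scramble, 5.36, 5.43 and 5.21 with CDH2 shRNA, and 5.45 and 5.50 with Cx43 shRNA, a change of -0.43 (limma adjusted p 0.0497) and a difference of -0.30 (limma adjusted p 0.243). The call was lost on the log2(CPM + 0.1) scale, with an adjusted p of 0.0543. INHBA, another ligand gene, had a larger difference, -0.91 with Cx43 shRNA (limma adjusted p 0.0751), and -0.04 with CDH2 shRNA, and was not called. None of 7 further latency and activation genes was called. The largest differences among them were those of LTBP3, at -0.49 with CDH2 shRNA (limma adjusted p 0.0811), and LTBP4, at 0.44 with Cx43 shRNA (limma adjusted p 0.107), both of which encode latent TGF-β binding proteins. None of 8 further receptors was called, and the bone morphogenetic protein (BMP) receptors BMPR1A (0.39 with Cx43 shRNA, limma adjusted p 0.181) and BMPR2 (0.30 with CDH2 shRNA, limma adjusted p 0.257) had the largest differences.

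SMAD6, an inhibitory SMAD like SMAD7 that acts mainly on BMP signals, fell with CDH2 shRNA. Its value was 4.01, 3.87 and 4.13 in scramble, 3.57, 3.55 and 3.36 with CDH2 shRNA, and 3.90 and 4.06 with Cx43 shRNA. The CDH2 shRNA libraries lay below all others, whereas those of SMAD7 had a higher mean than scramble. The log2 fold change was -0.51 (limma adjusted p 0.0419) with CDH2 shRNA and -0.02 (limma adjusted p 0.939) with Cx43 shRNA, and the difference between the knockdowns, -0.49, had a limma adjusted p of 0.163. Among the adaptors and coactivators, 2 of 9 were called higher with CDH2 shRNA and none with Cx43 shRNA. Of all genes 7.29% were called higher with CDH2 shRNA, and 1.21% were called in either direction with Cx43 shRNA. EP300 and CREBBP encode the related acetyltransferases p300 and CBP, coactivators of SMADs and of many other factors. EP300 was at 5.64, 5.46 and 5.84 in scramble, 6.29, 6.52 and 6.12 with CDH2 shRNA, and 5.60 and 5.55 with Cx43 shRNA. CREBBP was at 6.63, 6.58 and 6.71 in scramble, 7.0, 7.17 and 6.98 with CDH2 shRNA, and 6.56 and 6.44 with Cx43 shRNA. All CDH2 shRNA libraries lay above all others for both genes. The CDH2 shRNA and scramble libraries did not overlap in 51.9% of all genes, so this is common, for SMAD6 too. EP300 rose by 0.66 (limma adjusted p 0.0417) and CREBBP by 0.41 (limma adjusted p 0.0446) with CDH2 shRNA.

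Of 14 negative regulators none was called, beside 14.3% of all genes with CDH2 shRNA and 1.21% with Cx43 shRNA. BAMBI, a pseudoreceptor, differed by -0.86 with Cx43 shRNA (limma adjusted p 0.0541) and by -0.27 with CDH2 shRNA (limma adjusted p 0.153). FST, which encodes the activin antagonist follistatin, differed by -0.79 with Cx43 shRNA (limma adjusted p 0.0515) and by -0.21 with CDH2 shRNA (limma adjusted p 0.184). In the SMAD-independent branch none of 8 was called. MAP3K7, the kinase TAK1, differed by 0.30 and 0.36, and TAB3, which encodes a partner of it, by 0.29 and -0.44, with CDH2 and Cx43 shRNA.

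Known target genes of TGF-β were called lower in a few cases and higher in none. Of 34 listed, 28 had values, and 3 fell with CDH2 shRNA (ANGPTL4, LMCD1 and PMEPA1) and 2 with Cx43 shRNA (ANGPTL4 and LMCD1). Of all genes 6.98% were called lower with CDH2 shRNA and 0.788% with Cx43 shRNA. Without the replicate block 7 and 8 of the 28 were called, beside 43.3% and 24.3% of all genes. The median log2 fold change was -0.11 with CDH2 shRNA, with 9 positive and 19 negative values, and -0.18 with Cx43 shRNA, with 8 positive and 20 negative. ANGPTL4, which encodes a secreted inhibitor of lipoprotein lipase, was at 3.03, 3.11 and 2.98 in scramble, 1.79, 1.96 and 1.97 with CDH2 shRNA, and 1.71 and 1.47 with Cx43 shRNA. It fell by 1.13 with CDH2 shRNA (limma adjusted p 0.0160) and by 1.45 with Cx43 shRNA (limma adjusted p 0.0316). Every knockdown value of ANGPTL4 lay under the smallest maximum of any gene with values. ANGPTL4 was therefore among these genes only through scramble, and with knockdown values this low only a fall could be seen. LMCD1, a LIM domain protein gene, was at 4.54, 4.45 and 4.61 in scramble, 3.81, 3.67 and 3.63 with CDH2 shRNA, and 3.51 and 3.74 with Cx43 shRNA. It fell by 0.83 (limma adjusted p 0.0201) and by 0.91 (limma adjusted p 0.0412). In both genes all knockdown libraries lay below all scramble libraries. Of all genes, 51.9% did not overlap with scramble for CDH2 shRNA and 52.8% for Cx43 shRNA. PMEPA1, whose product restrains TGF-β signals at the membrane, was at 4.52, 4.42 and 4.61 in scramble, 4.08, 4.12 and 3.96 with CDH2 shRNA, and 4.45 and 4.50 with Cx43 shRNA. It fell by 0.46 with CDH2 shRNA (limma adjusted p 0.0356) and differed by -0.04 with Cx43 shRNA.

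Further target genes often used as readouts were not called. CCN2, named CTGF in the files, differed by 0.17 and 0.26, TGFBI by -0.25 and -0.41, and JUNB by -0.15 and 0.40, with CDH2 and Cx43 shRNA. SKIL, which encodes a repressor of SMADs, differed by 0.15 and -0.14, and CDKN1A, the cell cycle inhibitor p21, by -0.21 and -0.33. TAGLN, a smooth muscle actin-binding protein gene, had the largest of these differences, -1.16 with Cx43 shRNA (95% interval -2.01 to -0.32, limma adjusted p 0.143) and -0.39 with CDH2 shRNA. The readouts therefore had no common direction. Among the other uncalled target genes, SNAI1 differed more, by -1.27 with Cx43 shRNA (limma adjusted p 0.0868) and -0.73 with CDH2 shRNA (limma adjusted p 0.0789). THBS1 differed by 0.67 with CDH2 shRNA and by -0.48 with Cx43 shRNA. Of the 28 target genes with values, 9 were positive with CDH2 shRNA and 8 with Cx43 shRNA. Of 5 genes of the BMP branch, ID2 fell in both knockdowns, by 0.78 (limma adjusted p 0.0297) and by 1.25 (limma adjusted p 0.0384), and ID1, ID3, MSX2 and HEY1 were not called.

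The calls outside the 9 transcripts were lost with the same libraries as that of TGFB1, while their folds kept their direction. Each of the 8 genes called with CDH2 shRNA lost its call without CDH2 shRNA replicate 1, without CDH2 shRNA replicate 2, without scramble replicate 1 and without either Cx43 shRNA library, with adjusted p from 0.0561 (ANGPTL4 and LMCD1, without either Cx43 shRNA library) to 0.275 (CREBBP, without scramble replicate 1). With 1 library left out, ANGPTL4 stayed between -1.19 and -1.04 and LMCD1 between -0.91 and -0.75 with CDH2 shRNA. CREBBP also lost its call without scramble replicate 2, with an adjusted p of 0.0917. The 3 calls with Cx43 shRNA, ANGPTL4, LMCD1 and ID2, were lost without the same libraries, with adjusted p from 0.0542 (ANGPTL4, without CDH2 shRNA replicate 1) to 0.36 (ID2, without Cx43 shRNA replicate 2). The RNA came from a sorted population, in which fewer cells that express a gene and less RNA per cell cannot be told apart.

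**Figure D5:**
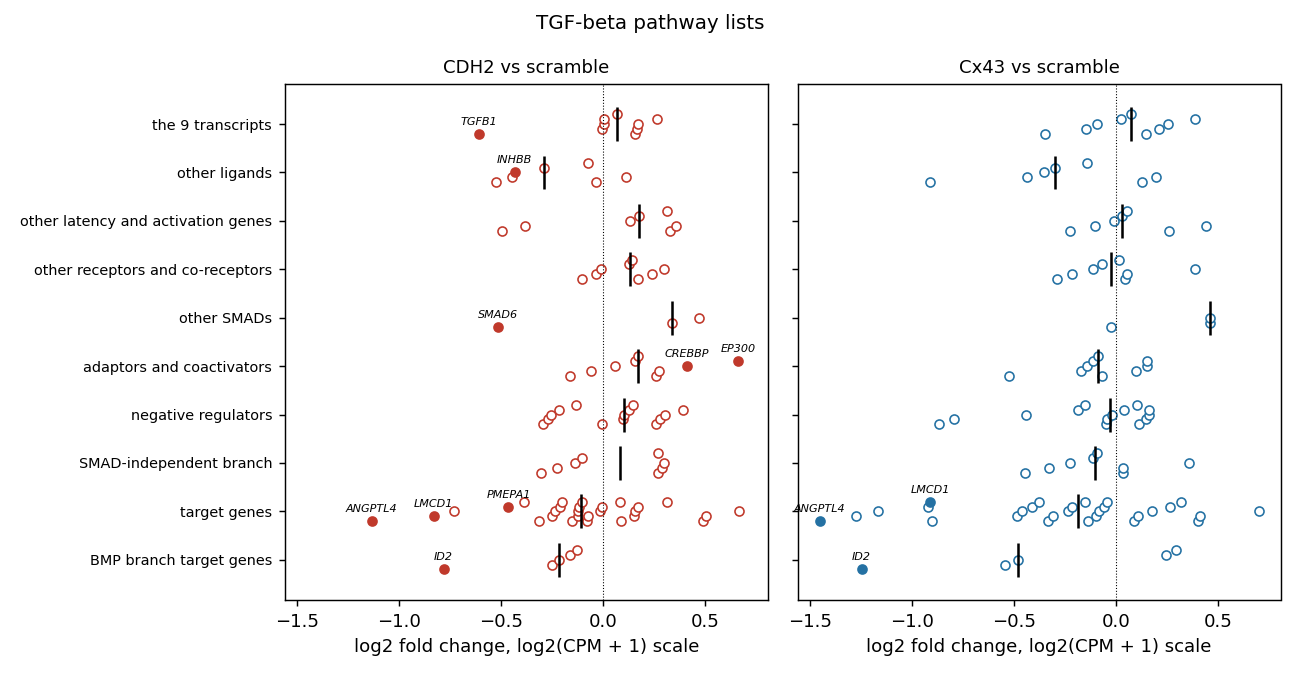
log2 fold change of every pathway gene with values, by list, for CDH2 shRNA versus scramble (left) and Cx43 shRNA versus scramble (right); points are genes, filled and named where the adjusted p was under 0.05, and black lines are list medians. Target genes lie on both sides of 0, and their called members, ANGPTL4, LMCD1 and PMEPA1, lie to the left of it.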

How the data were processed

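The data were RNA-Seq values of 8 libraries of sorted CSCs. According to the methods and the submitters' processing notes, the authors aligned reads with STAR 2.6.1 to hg38 in Partek Flow, removed a low-quality sample, normalized to log CPM + 1, corrected for sequencing replicates with Partek's shrunken log normal model and dropped low genes. The methods give another version number for STAR. The deposited values are log2(CPM + 1). They hold 12939 genes and 1 unnamed row, left out here, and no counts, so no count test was possible, depth is unknown and the number of libraries limits the precision. The smallest maximum of a gene was 2.00.

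Among same-numbered libraries, a gene's deviations from its group means added up to at most 1e-04, and their correlations between libraries ran from -1.00 to 0.951. The correction fixes that sum, so they are no independent evidence of pairing. The labels give replicate numbers but do not say that they are the sequencing replicates whose effect was removed, which is inferred from these sums. The test was limma 3.58.1 under R 4.3.3 (lmFit and eBayes, group and replicate number in 1 model of all 8 libraries, 3 residual degrees of freedom and 2.84 prior), two-sided, with Benjamini-Hochberg adjustment over 12939 genes. The residuals of the deposited values varied in only 2 directions, fewer than the residual degrees of freedom counted, so the p-values may be too small. The scripts were tested on simulated data. Alternatives were no replicate block, quantile normalization, median centring, the 75% of genes with the highest mean, log2(CPM + 0.1), a mean-variance trend, only the groups compared, the fold changes of the methods and leaving out each library.

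Levels per kilobase used GENCODE 44 on hg38. Named genes were the 9 members, the called genes of each further list (otherwise the 2 with the largest difference), common readouts and the 3 genes most like a called member. INHBA, SNAI1 and THBS1 were added for their large differences. The result of 1 target gene is not reported here, though it is in the counts of its list. The members and lists were chosen with earlier results of these data known.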

Additional observations from a re-analysis of the deposited data

Results flagged for a closer look

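CREBBP, the gene of the coactivator CBP, was set apart because every CDH2 shRNA library lay above, and every Cx43 shRNA library below, the scramble library of the same number. It was higher with CDH2 than with Cx43 shRNA by 0.55 (limma adjusted p 0.124), so the difference between the knockdowns did not pass the threshold. With either knockdown on the upper side, the condition was met by 6 of the 98 pathway genes with values (6.12%), none of them among the 9 ligand, receptor and SMAD transcripts, and by 6.61% of all genes, so it is not particular to CREBBP.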

How the results depend on the processing

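With CDH2 shRNA, TGFB1 kept its direction under every alternative and its call under 6 of the 7 alternatives of normalization, filter, scale and model (adjusted p 0.00261 without the replicate block, 0.0313 with quantile normalization, 0.0339 with median centring, 0.0297 with the 75% of genes, 0.0348 on the log2(CPM + 0.1) scale and 0.0294 with a trend). It lost the call when only the groups compared were fitted (-0.61, adjusted p 0.0575). Leaving out 1 library moved it between -0.71 and -0.49. The count of the 9 transcripts called fell to 0 with only the groups compared or with the fold change of the methods, and lay between 0 and 4 when 1 library was left out. With Cx43 shRNA it was 1 with only the groups compared and 0 to 1 with 1 library left out. Between the knockdowns it was 1 without the replicate block and 0 to 2 with 1 library left out.

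The replicate block, the groups fitted and the libraries moved the counts of the lists. Without the replicate block 7 target genes, 25 other pathway genes and 5607 of all genes were called with CDH2 shRNA, 8, 14 and 3140 with Cx43 shRNA, and 6, 17 and 2784 between the knockdowns. With only the groups compared the counts were 0, 0 and 0 with CDH2 shRNA, 12, 12 and 2807 with Cx43 shRNA, and 2, 5 and 559 between the knockdowns. With 1 library left out, target genes called ranged from 0 to 12, 0 to 8 and 0 to 7 in these comparisons, other pathway genes from 0 to 22, 0 to 10 and 0 to 12, and all genes from 0 to 5309, 0 to 2133 and 0 to 2131. The fold change of the methods left 267 of all genes and 0 other pathway genes with CDH2 shRNA. With Cx43 shRNA the 75% of genes left 0 target genes and 4 of all genes, and median centring or log2(CPM + 0.1) gave 1 other pathway gene. Fits with fewer libraries called fewer genes in some cases and more in others, and the cause was not tested.

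Signs turned for differences that were small and not called in the main fit. Of these, TGFBR2 with CDH2 shRNA was called without replicate 3, at 0.40 (limma adjusted p 0.0236). With quantile normalization SMAD2 was at -0.04 (CDH2) and -0.02 (Cx43), LTBP3 at -0.02 and BMPR2 at -0.04 (Cx43), and with median centring BMPR2 at -0.00 (Cx43) and TGFBR1 at 0.01 (CDH2 versus Cx43). With only the groups compared LTBP1 was at 0.08, SMAD6 at 0.04, EP300 at 0.03 and PMEPA1 at 0.01 with Cx43 shRNA, and TGFBR1 at 0.10, SMAD2 at 0.06, SMAD4 at 0.02, MAP3K7 at 0.02 and CDKN1A at -0.01 between the knockdowns. With 1 library left out and CDH2 shRNA, TGFB2 ranged from -0.25 to 0.30, LTBP1 from -0.38 to 0.35, TGFBR1 from -0.10 to 0.28, TGFBR2 from -0.02 to 0.40, SMAD2 from -0.12 to 0.16 and SKIL from -0.02 to 0.37. With Cx43 shRNA, TGFB1 ranged from -0.34 to 0.05, LTBP1 from -0.41 to 0.16, TGFBR1 from -0.13 to 0.18, TGFBR2 from -0.08 to 0.26, SMAD2 from -0.13 to 0.10, LTBP3 from -0.18 to 0.14, BMPR2 from -0.23 to 0.14, SMAD6 from -0.16 to 0.10, EP300 from -0.25 to 0.03, PMEPA1 from -0.14 to 0.01 and SKIL from -0.36 to 0.05. Between the knockdowns, LTBP1 ranged from -0.39 to 0.35, TGFBR1 from -0.18 to 0.10, TGFBR2 from -0.17 to 0.13, SMAD2 from -0.15 to 0.06, SMAD3 from -0.22 to 0.06, SMAD4 from -0.15 to 0.02, SMAD7 from -0.26 to 0.01, MAP3K7 from -0.17 to 0.02, LMCD1 from -0.09 to 0.25, CCN2 from -0.30 to 0.11, TGFBI from -0.07 to 0.25 and CDKN1A from -0.01 to 0.34. The cause was not tested. The median of the target genes with CDH2 shRNA ranged from -0.13 to 0.05 with 1 library left out, so its sign was not stable. Under the other alternatives it lay between -0.15 and -0.11. With Cx43 shRNA it stayed between -0.24 and -0.14 with 1 library left out.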
